A study of Drosophila melanogaster with 6 samples.

Results

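The transcripts described here were assembled from the RNA-seq reads of single libraries of Drosophila wing imaginal discs and carry class code j, given to an assembled transcript that matches no annotated transcript in full but shares at least 1 splice junction with one. They were taken as every row with that code in the 6 transcript tables, 10568 of 201527 rows, and grouped by the reference gene they match. They belong to 3129 host genes of 17526 genes with a value. The wing imaginal disc is the larval epithelium that forms the adult wing and notum. Its RNA was sequenced in 3 dNKAP RNAi libraries and in 3 control libraries. The dNKAP RNAi discs carry MS1096-Gal4 and an RNAi transgene against dNKAP, and the control discs carry the same MS1096-Gal4 driver without it. MS1096-Gal4 is an insertion at Beadex whose expression is strongest in the pouch, and a whole disc therefore includes cells with little or no hairpin. The labels do not say whether the replicates came from separate cultures or dissections, and the p-values reflect the scatter among these libraries, which may be technical. In whole discs fewer cells of a type and less RNA per cell cannot be told apart.

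An intron is removed by the spliceosome, and the use of alternative promoters, splice sites and polyadenylation sites lets a gene make several mature transcripts. A transcript assembler rebuilds these chains of exons from read coverage. A rebuilt chain gets code j when it keeps a known junction but joins known exons in another combination, or lacks or gains an exon. NKAP is a nuclear protein known in mammals for roles in transcriptional repression and in the splicing machinery. CG6066, the fly gene of this name and the target of the hairpin, had no class j row in any library. Its gene FPKM, a level per length of transcript and per library size, was 14.0, 13.3 and 11.4 in the 3 dNKAP RNAi libraries and 23.6, 22.8 and 26.6 in the 3 control libraries, and the gene passed the test across all genes (limma, adjusted p = 0.0146).

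The tables hold no read counts. Read depth times transcript length summed to 4.14 to 4.55 gigabases in the dNKAP RNAi libraries and to 4.71 to 6.44 gigabases in the control libraries, so every dNKAP RNAi library was shallower than every control library. Each of the 6 wing pouch markers was above 0 in at least 1 library, and their summed FPKM was 431 to 470 in dNKAP RNAi and 400 to 409 in control discs. Fat body markers summed to 152 to 570 FPKM in dNKAP RNAi and 0.991 to 41.8 FPKM in control discs, with 3 of the 5 at 0 in all libraries; none of the 5 hosted a class j isoform, and their part in the results below was not tested. A value of exactly 0 in these tables need not mean absence: the abundant gene 14-3-3zeta was listed at 0 in 5 libraries and at 547 FPKM, all of it class j, in dNKAP RNAi replicate 2. For class j, 0 means that no such transcript was assembled in that library.

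Class j isoforms were mostly shorter than the annotated transcript they matched best. Their median length was 2519.5 bases (quartiles 1582 and 3955) and 76.9% of the closest reference transcript, and 87.6% were shorter than it while 12.3% were longer. The closest reference had a median of 6 introns. The median class j row had 11.3 FPKM at a read depth of 64.8 per base (quartiles 20.3 and 154), and 52.2% of the rows had the highest FPKM of their locus in that library. Of the 10568 rows, 7 had exactly the length of an annotated transcript that the tables do not list. Exact lengths rarely match, and 0.0568% of rows had that of their own closest reference. The 7 therefore do not show how many rows are such transcripts. The length relative to the reference was 76.9% ± 0.434 in dNKAP RNAi and 76.8% ± 0.575 in control libraries (SD of library medians, n = 3 each, exact two-sided permutation test p = 0.9).

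Host genes were longer and had more annotated isoforms than other genes. Of 6485 annotated genes that averaged 1 FPKM or more, 2749 (42.4%) hosted a class j isoform in some library. The expressed hosts had a median of 3 annotated transcripts, 5 introns, a longest intron of 1714 bases and a span of 6179 bases. The other 3736 expressed genes had medians of 1 transcript, 2 introns, 78 bases and 1934.5 bases, and 20.1% of them had no intron. Class j needs a shared splice junction, so a gene with no intron cannot be a host. Part of the contrast in introns and span therefore follows from the definition. Expression was closer, with median FPKM of 22.9 in hosts and 20.3 in the others, and the share of genes that host a class j isoform stayed between 37.1% and 44.8% across ranges of mean FPKM. Hosts with class j isoforms in all 6 libraries were longer still, with medians of 4 transcripts, 7 introns and a span of 11550 bases. These are descriptions across genes, which are not independent replicates.

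Differences in the amount of class j between the groups did not exceed the spread between libraries in most measures. A library held 1778 ± 75.6 class j rows in dNKAP RNAi and 1744 ± 77.2 in control discs (mean ± SD, n = 3 each, exact two-sided permutation test p = 0.6). Host genes per library numbered 1499 ± 47.1 in dNKAP RNAi and 1450 ± 65.0 in control discs (n = 3 each, exact p = 0.4). Class j isoforms made up 9.84% ± 0.662 of the FPKM over classes = (exact match), c (contained fragment), j and o (other exonic overlap) in dNKAP RNAi and 9.21% ± 0.668 in control discs (n = 3 each, exact p = 0.4). When read depth times length replaced FPKM, the share was 14.2% ± 0.565 in dNKAP RNAi and 13.3% ± 0.245 in control discs, with all 3 dNKAP RNAi libraries above all controls (exact p = 0.1, the smallest that 3 against 3 libraries can give). The median share of a host gene's FPKM held by class j was 61.7% ± 1.07 in dNKAP RNAi and 61.6% ± 0.953 in control libraries (n = 3 each, exact p = 1). Most hosts had 1 class j row in a library, and those with 3 or more numbered 31 to 35 in dNKAP RNAi and 37 to 41 in control libraries.

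Whether a gene hosted a class j isoform varied strongly between replicates. Of the 3129 hosts, 1072 (34.3%) had class j in 1 library only, of which 527 were in a dNKAP RNAi library and 545 in a control library. Another 420 (13.4%) had it in all 6 libraries and held 29.2% of all class j FPKM. Across hosts, log2 class j FPKM correlated between libraries with r of 0.23 to 0.35, within and between groups, against 0.81 to 0.85 for the FPKM of all genes, as a description across genes. Single isoforms recurred less: taking the closest reference and the length as the identity of an isoform, 9214 of 9771 (94.3%) were listed in 1 library and 6 in all 6. Equal length does not prove equal structure. The 6 included, as examples chosen after their values were seen, an isoform of Lar, a receptor tyrosine phosphatase, of 6657 bases, with 13.1, 16.5 and 19.0 FPKM in dNKAP RNAi and 8.90, 19.1 and 17.8 FPKM in control libraries, and one of Orc2, a subunit of the origin recognition complex, of 2053 bases.

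**Figure D1:**
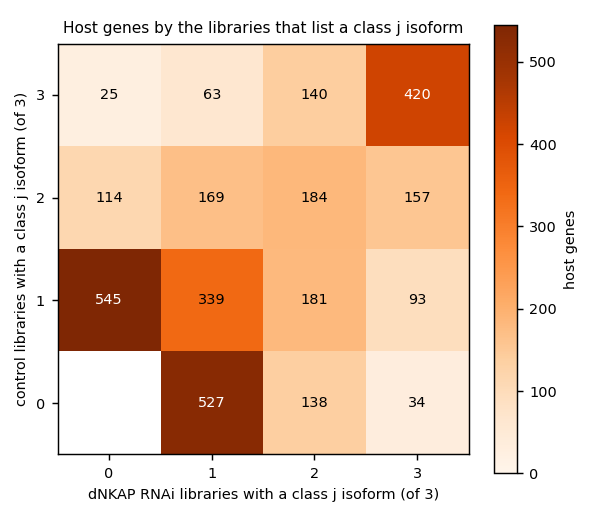
Number of host genes by how many of the 3 dNKAP RNAi libraries (x axis) and how many of the 3 control libraries (y axis) list a class j isoform of the gene. The largest cells are genes with class j in 1 library (527 and 545) and genes with class j in all 6 (420), while 34 genes had it in every dNKAP RNAi library and no control and 25 the reverse.

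When a replicate gained a class j isoform, the FPKM assigned to the gene's other classes was mostly lower. Among 1541 genes that had class j in some but not all dNKAP RNAi libraries, the FPKM of other classes was lower in the libraries with class j for 77.9%, with a median difference of -0.48 on the log2(FPKM + 0.5) scale. In control discs it was lower for 78.0% of 1542 such genes, with a median of -0.51. The gene sum went the other way, higher with class j for 82.4% of the dNKAP RNAi set and 81.3% of the control set, with median log2 differences of 0.30 and 0.29. Both differences were thus present between replicates of one genotype.

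**Figure D2:**
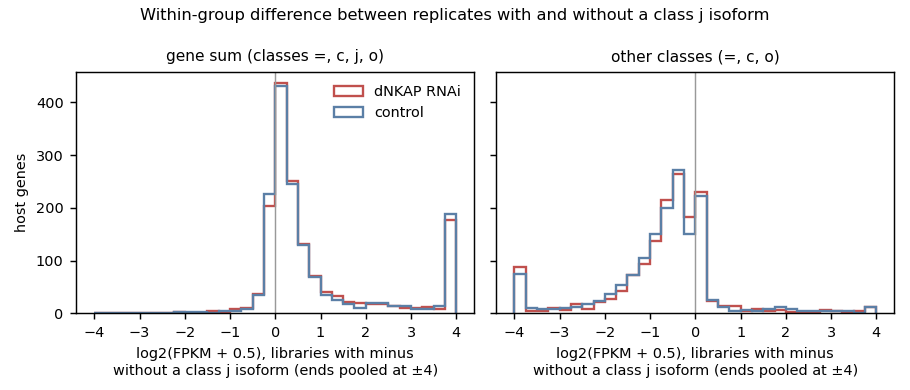
Histograms over host genes of the difference in log2(FPKM + 0.5) between replicates of one group with and without a class j isoform, for the gene sum (left) and the other classes (right), in dNKAP RNAi (red) and control (blue). In both groups the gene sum lies mostly above 0 (82.4% and 81.3% of genes) and the other classes mostly below 0 (77.9% and 78.0%).

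The summed class j FPKM of each host gene was then compared between dNKAP RNAi and control discs. Of 2318 hosts whose class j averaged 1 FPKM or more, 7 (0.302%) were higher and 6 (0.259%) lower in dNKAP RNAi discs, 13 (0.561%) in all (limma, Benjamini-Hochberg adjusted p under 0.05), and 87 (3.75%) had an unadjusted p under 0.05. The groups did not overlap for 129 hosts (5.57%) with higher and 67 (2.89%) with lower class j FPKM. By comparison, 242 of 6506 genes (3.72%) passed the same test on gene FPKM, 209 (3.21%) higher and 33 (0.507%) lower. For the FPKM of other classes 173 of 6138 genes (2.82%) passed, 148 (2.41%) higher and 25 (0.407%) lower. All 13 called hosts had class j in every library of one group and in none of the other, and so passed the filter of 1 FPKM only through the group that has it. Of the 2318 tested hosts, 821 had class j in libraries of 1 group only, and the counts of calls describe presence and absence and are no support for a change in amount. The 3 values of 0 in one group have no spread, and the fitted fold changes there depend on the value added before taking the log, so levels are given in place of folds. The median log2 difference over the 2318 hosts was 0.10. Of the 13 hosts, 4 passed at the level of the gene sum and 3 in the other classes. Between replicates of one group, class j already went with lower other classes and a higher gene sum in most genes. The p-values of other classes and gene sums given for these hosts below are therefore not separate from the class j pattern.

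Class j FPKM was higher in dNKAP RNAi discs for sqd, Droj2, Rdh1, ckn, wus, RFeSP and pum. sqd encodes Squid, an hnRNP protein that binds and localizes mRNA (chr3R:13634862-13646304, dm6). Its class j FPKM was 360, 327 and 93.5 in the dNKAP RNAi libraries and 0 in all 3 controls (adjusted p = 0.00721). The other classes of sqd had 58.4, 51.2 and 28.0 FPKM in dNKAP RNAi and 214, 213 and 232 FPKM in control discs, and fell by 2.31 in log2 units (SE 0.286, limma adjusted p = 0.0201). As sqd was picked by its class j, this p-value is no separate support for a change, and the same holds for Droj2 and bowl below. The reference transcript FBtr0082855 of sqd was listed at 0 in every dNKAP RNAi library and had 156, 155 and 174 FPKM in the controls, whereas the gene sum did not pass (adjusted p = 0.776) and was lowest in dNKAP RNAi replicate 3.

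Droj2, a DnaJ-type co-chaperone (chr3R:13382106-13385283), showed the same arrangement with little scatter. Its class j FPKM was 223, 216 and 208 in dNKAP RNAi discs and 0 in the controls (adjusted p = 0.00610). These isoforms were 1407, 1393 and 1407 bases long, against 1824 bases for their closest reference, FBtr0082755. That reference was listed at 0 in every dNKAP RNAi library and had 110, 142 and 101 FPKM in control discs. The other classes together had 170, 163 and 175 FPKM in dNKAP RNAi and 323, 318 and 368 FPKM in control discs (limma adjusted p = 0.00401), and the gene sum did not pass (adjusted p = 0.228). ckn, which encodes the adaptor protein Caskin (chr2R:14963292-14980795), had class j FPKM of 120, 86.8 and 98.2 in dNKAP RNAi and 0 in control discs (adjusted p = 0.00710). Its reference transcript FBtr0087411 had 15.4, 47.6 and 36.4 FPKM in dNKAP RNAi and 99.9, 108 and 99.5 FPKM in control discs, groups that do not overlap, although the other classes of ckn did not pass (adjusted p = 0.135). The gene sum of ckn rose by 0.40 ± 0.050 in log2 units (SE, limma adjusted p = 0.0174). Between dNKAP RNAi replicates, genes with class j in some libraries had a sum higher by a median of 0.30 (quartiles 0.06 and 0.98) where it was present. The rise of ckn lies within those quartiles, and how far it depends on class j assembly was not tested.

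pum, which encodes the translational repressor Pumilio (chr3R:9066343-9237682), differed in the gene sum as well. Class j isoforms of pum had 29.4, 27.2 and 29.9 FPKM in dNKAP RNAi discs and 0 in controls (adjusted p = 0.0469), while its other classes had 11.3, 10.3 and 10.5 FPKM in dNKAP RNAi and 8.06, 7.73 and 11.9 FPKM in control discs. These isoforms were 2031, 2721 and 2675 bases long beside a closest reference of 10223 bases. The gene sum of pum rose by 2.06 ± 0.176 in log2 units (SE, limma adjusted p = 0.00463). FPKM is a level per length, so this sum also depends on the assembled lengths, by an amount that was not tested. In the other 3 hosts the gene was at or near 0 in controls. Rdh1, a retinol dehydrogenase (chr2R:7665828-7667343), had class j FPKM of 102, 81.2 and 203 in dNKAP RNAi and 0 in control discs (adjusted p = 0.00721), and other-class FPKM of 182, 171 and 219 in dNKAP RNAi and 9.97, 0 and 11.9 in control discs.

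wus and RFeSP had no other class at all. wus encodes Wurst, a membrane protein with a J domain that acts in endocytosis (chrX:16938244-16940873). It had class j FPKM of 50.7, 57.1 and 65.8 in dNKAP RNAi and was listed at 0 in control discs (adjusted p = 0.0150 for class j). The closest reference of wus has a single intron, so the junction these isoforms share with it is that intron, chrX:16939992-16940503 in the 5′ UTR. RFeSP, the Rieske iron-sulfur subunit of respiratory complex III (chr2L:1612429-1614160), had 33.5, 40.2 and 33.6 FPKM in dNKAP RNAi and was listed at 0 in control discs (adjusted p = 0.0321). The gene sums of wus and RFeSP are the class j FPKM itself, so their limma adjusted p = 1.19e-04 describes the same presence against 0. Exons of RFeSP overlap CG14352 and those of Rdh1 overlap DCTN4-p62, and the use of strand in the assembly is not given in the sources used here, so their reads may be shared with the neighbour.

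The 6 hosts whose class j FPKM was lower in dNKAP RNAi discs were bowl, ttk, eIF4E1, Prx2, Cad86C and Adss. bowl, a zinc finger transcription factor of the odd-skipped family (chr2L:3771700-3784121), had class j FPKM of 0 in dNKAP RNAi and 351, 343 and 146 in control discs (adjusted p = 0.00670). Its other classes had 223, 213 and 232 FPKM in dNKAP RNAi and 75.5, 95.0 and 123 FPKM in control discs and rose by 1.21 ± 0.183 in log2 units (SE, limma adjusted p = 0.0397). The annotated transcript FBtr0307028 of bowl accounted for 179, 172 and 188 FPKM of these in dNKAP RNAi and 47.6, 95.0 and 85.8 FPKM in control discs. The gene sum of bowl did not pass (adjusted p = 0.143). ttk, which encodes the Tramtrack repressors (chr3R:31713867-31735392), had 0 class j FPKM in dNKAP RNAi and 40.9, 51.6 and 57.0 in control discs (adjusted p = 0.0195), with other classes at 65.7, 67.2 and 71.3 FPKM in dNKAP RNAi and 43.4, 43.6 and 59.4 FPKM in control discs. eIF4E1, the cap-binding translation initiation factor (chr3L:9399618-9402460), had 0 in dNKAP RNAi and 97.6, 223 and 169 FPKM of class j in control discs (adjusted p = 0.00695).

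The remaining lower hosts encode enzymes and an adhesion protein. Prx2, a peroxiredoxin (chrX:13329824-13331994), had 0 class j FPKM in dNKAP RNAi and 90.5, 141 and 165 in control discs (adjusted p = 0.00695). Its transcript FBtr0073763 had 648, 571 and 594 FPKM in dNKAP RNAi and 431, 260 and 317 FPKM in control discs. The closest reference of the Prx2 isoforms has 1 intron, chrX:13330031-13331121 in the 5′ UTR, which is the shared junction. Cad86C, a cadherin (chr3R:10827079-10849030), had 0 in dNKAP RNAi and 36.9, 34.2 and 59.4 FPKM of class j in control discs (adjusted p = 0.0293). Here 8 distinct isoforms were assembled in the 3 controls, while the annotated transcript FBtr0304665 of Cad86C had 15.4, 13.2 and 18.4 FPKM in dNKAP RNAi and 0 in every control library. Adss, an enzyme of purine synthesis (chr3R:20824667-20830580), had 0 in dNKAP RNAi and 37.4, 26.8 and 24.7 FPKM in control discs (adjusted p = 0.0469); its exons overlap the antisense RNA asRNA:CR44047.

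**Figure D3:**
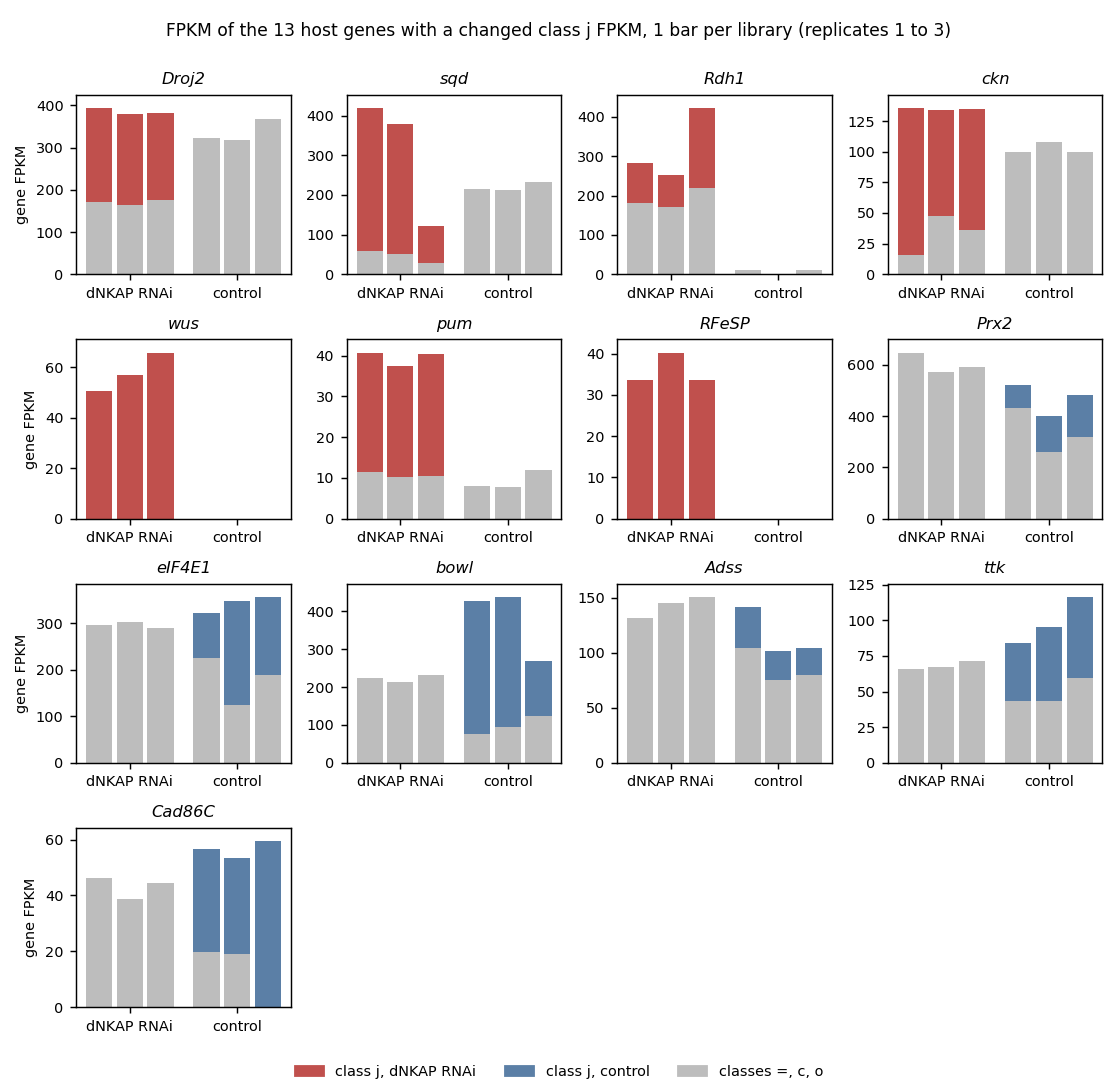
Gene FPKM (y axis) in each library for the 13 called hosts, with dNKAP RNAi replicates 1 to 3 left of control replicates 1 to 3 in each panel; grey is the FPKM of classes =, c and o, and red or blue the class j FPKM stacked on it. In each panel class j appears in the 3 libraries of one group and in none of the other, and in panels such as Droj2, bowl and eIF4E1 the grey part is lower where the coloured part is present.

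Leaving out 1 library keeps the pattern of class j in one group and none in the other, so it does not test the calls. Which calls stayed followed the level of class j. Leaving out any 1 library kept sqd, Droj2, Rdh1, ckn, bowl, eIF4E1 and Prx2 past the threshold. Their class j FPKM averaged 102 (ckn) to 280 (bowl) in the group that had it. In the called hosts that follow it averaged 28.8 (pum) to 57.9 (wus). The call of wus and of RFeSP was lost without any 1 of the dNKAP RNAi libraries (adjusted p = 0.0548 to 0.0612 for wus and 0.0647 to 0.0889 for RFeSP), and that of ttk and of Cad86C without any 1 of the control libraries (0.0579 to 0.0699 for ttk and 0.0675 to 0.0751 for Cad86C). The call of pum was lost without dNKAP RNAi replicate 1, 2 or 3 or control replicate 2 (0.0528 to 0.102), and that of Adss without dNKAP RNAi replicate 1 or 2 or any 1 control (0.0548 to 0.111).

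Over all hosts, 34 of 3129 (1.09%) had class j in every dNKAP RNAi library and no control, and 25 (0.799%) in every control and no dNKAP RNAi library. They are the extremes of the presence pattern, and the genes named from them here were chosen after their values were seen, apart from those called above. Of 31 of the 34 tested at the level of the gene sum, 10 were called higher and 0 lower; of the 25, 0 were called higher and 4 lower. These counts have no independent reading, since class j is part of the gene sum. The FPKM of other classes had a lower mean in dNKAP RNAi for 17 of 24 tested hosts with class j in dNKAP RNAi only, and for 2 of 21 tested hosts with class j in controls only. Between replicates of one group, other classes were lower with class j for 77.9% of genes in dNKAP RNAi and 78.0% in control discs. Those are other genes, with class j in some but not all libraries of a group, and the counts were not tested against each other. Exons of 18 of these 59 hosts overlap another gene.

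PNPase, which encodes a mitochondrial polynucleotide phosphorylase, exchanged its listed form completely (chr3R:31401560-31405452). Its class j FPKM was 0 in dNKAP RNAi and 14.4, 13.2 and 16.8 in control discs (limma adjusted p = 0.152). The annotated transcript FBtr0334553 of PNPase had 15.8, 18.9 and 12.5 FPKM in dNKAP RNAi and 0 in all controls. The other classes passed the test (limma adjusted p = 9.50e-04), which again describes presence against 0. The control isoforms were 2476, 2478 and 2441 bases long beside a closest reference of 2762 bases. The gene sum was 15.7 ± 3.16 FPKM in dNKAP RNAi and 14.8 ± 1.82 FPKM in control discs (SD, n = 3 each, limma adjusted p = 0.845). The exons of PNPase overlap Gcn2 and Gprk2.

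Other hosts of one group, at lower levels, included fu, neur, Dll and Su(z)12. They are examples chosen after their values were seen, and the share of developmental regulators among hosts was not computed. fu, the kinase of Hedgehog signalling, had class j FPKM of 5.57, 8.01 and 8.02 in dNKAP RNAi and 0 in control discs (adjusted p = 0.305), with other classes at 15.9, 17.1 and 15.0 FPKM in dNKAP RNAi and 22.3, 19.8 and 20.8 FPKM in control discs. neur, a ubiquitin ligase that acts on Notch ligands, had 2.99, 2.68 and 2.27 class j FPKM in dNKAP RNAi and 0 in control discs (adjusted p = 0.660). Dll, the homeodomain factor of distal limb identity, had 0 in dNKAP RNAi and 4.80, 3.10 and 2.81 in control discs (adjusted p = 0.660). Su(z)12, a subunit of Polycomb repressive complex 2, had 0 in dNKAP RNAi and 13.2, 7.40 and 11.4 in control discs (adjusted p = 0.202). None of these 4 passed the class j test.

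Some hosts of this kind were listed at 0 as whole genes in the other group. The limma p-values of their gene sums set listed values against values of 0 and describe presence and absence. net, a helix-loop-helix repressor of wing veins (chr2L:82421-87387), had 11.8, 9.54 and 10.6 FPKM in dNKAP RNAi, all class j, and was listed at 0 in every control (gene sum adjusted p = 5.83e-04). Its shared junction is the intron chr2L:84278-87019 within the coding sequence. Not3, a subunit of the CCR4-NOT deadenylase, was listed at 0 in dNKAP RNAi and had 19.7, 6.86 and 48.2 FPKM, all class j, in control discs (gene sum adjusted p = 0.0203). Dif, a Rel factor of the Toll pathway, had class j FPKM of 9.47, 7.25 and 33.3 and other-class FPKM of 19.4, 20.2 and 9.35 in dNKAP RNAi and was listed at 0 in control discs (gene sum adjusted p = 3.03e-04). Exons of Not3 overlap CG1344 and those of Dif overlap CG15141.

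The share of a host's FPKM held by class j was tested as the log2 ratio of class j to other classes. None of 1995 hosts that averaged 1 FPKM or more in both parts was called (0.0%, limma), and 85 (4.26%) had an unadjusted p under 0.05. In 127 of these hosts both parts were listed at 0 in some library, which entered the test as equal parts. The groups did not overlap for 76 hosts (3.81%) with a higher and 49 (2.46%) with a lower share in dNKAP RNAi discs. The smallest adjusted p was that of PNPase, 0.0655, with a class j share of 0% in all dNKAP RNAi and 100% in all control libraries. The hosts with the smallest p and a higher share were sqd, ckn, Droj2, CG6845 and pum (adjusted p = 0.127 for sqd and up to 0.144 for pum). The class j share of sqd was 86.0%, 86.5% and 76.9% in dNKAP RNAi and 0% in control discs. That of CG6845 was 100%, 100% and 73.9% in dNKAP RNAi and 0% in control discs. After PNPase the lower shares with the smallest p were those of bowl, ttk, eIF4E1 and Rilpl (adjusted p = 0.138 to 0.143), and the share of Rilpl was 0% in dNKAP RNAi and 49.9%, 72.1% and 68.8% in control discs.

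Hosts with class j in all 6 libraries allow a comparison of class j FPKM without presence and absence of class j. Across these 420 hosts the median share of class j was 67.8% (quartiles 50.9% and 83.2%). The share was above 50% in every library for 178 hosts and below 50% in every library for 32, with neither true of the rest. In 48 hosts every library listed class j alone. These included ATPsynbeta, the beta subunit of the mitochondrial ATP synthase, br, the ecdysone-induced Broad transcription factor, dally, a glypican that shapes morphogen gradients, and E2f1, the cell cycle transcription factor. Class j FPKM of dally was 96.9, 114.7 and 143 in dNKAP RNAi and 102, 106 and 88.5 in control discs, and that of E2f1 was 41.8, 68.5 and 43.1 in dNKAP RNAi and 47.2, 52.6 and 43.2 in control discs, so the groups overlapped for both. These 4 genes were chosen after their values were seen.

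Replicate spread was larger for class j than for whole genes even in these hosts. The median SD was 23.7% of the mean in dNKAP RNAi and 24.99% in control discs for class j, beside 10.002% in dNKAP RNAi and 10.2% in control discs for the gene sums. The deposited confidence bounds of class j rows had a median half-width of 11.02% to 11.7% of the value in dNKAP RNAi and 10.3% to 11.7% in control libraries, and they cover the estimate within a library only. Of 407 of these hosts past the filter, limma called 0 (0.0%), 37 (9.09%) had an unadjusted p under 0.05, and the groups did not overlap for 53 (13.0%) with higher and 20 (4.91%) with lower class j FPKM in dNKAP RNAi discs. Together the 420 hosts' class j isoforms held 2.88% ± 0.0431 of the FPKM in dNKAP RNAi and 2.68% ± 0.0295 in control libraries (SD, n = 3 each), with every dNKAP RNAi library higher (exact two-sided permutation test p = 0.1, the smallest possible). At gene level 6 of 413 of them (1.45%) were called, beside 84 of all 2755 tested hosts (3.05%; 73, or 2.65%, higher and 11, or 0.399%, lower) and 158 of 3751 genes with no class j row (4.21%).

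Of the hosts with class j in every library, Fas3 had the smallest p, and it was chosen after its values were seen. It encodes Fasciclin III, an adhesion protein of the septate junction region (chr2L:18320102-18393441). Its class j FPKM was 367, 378 and 416 in dNKAP RNAi and 139, 61.5 and 123 in control discs, a 3.59-fold difference of means with no overlap (unadjusted p = 0.00125, adjusted p = 0.161). The other classes of Fas3 had 157, 142 and 105 FPKM in dNKAP RNAi and 148, 217 and 142 FPKM in control discs (adjusted p = 0.571). The gene sum of Fas3 rose by 0.91 ± 0.048 in log2 units (SE, limma adjusted p = 8.85e-04), and its class j share was 74.2% ± 5.09 in dNKAP RNAi and 38.9% ± 14.6 in control discs (SD, n = 3 each). The isoforms differed in length, with 1358, 1358 and 1293 bases in dNKAP RNAi and 2176, 2231 and 2262 bases in control libraries, all matched to the 3336-base reference FBtr0081051. FPKM is a level per length, so the fold difference and the gene sum of Fas3 also depend on these assembled lengths. How far they do was not tested. On leaving out 1 library, the class j FPKM of Fas3 passed the test without control replicate 2 and in no other case.

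Shares within the 420 hosts did not overlap between groups for 28 (6.67%) with a higher and 7 (1.67%) with a lower share in dNKAP RNAi discs, and none was called. Other classes were listed at 0 in some libraries for part of these hosts, so their shares still include presence and absence. With both parts above 0 in every library, 241 hosts were tested for the share and 0 were called (limma). The following were chosen after their values were seen. FoxK, a forkhead transcription factor (chr3L:11114169-11120783), had class j FPKM of 38.3, 26.9 and 24.7 in dNKAP RNAi and 72.4, 66.8 and 73.2 in control discs. Its other classes had 42.4, 42.3 and 46.7 FPKM in dNKAP RNAi and 0, 22.8 and 0 FPKM in control discs, and the gene sum did not pass (adjusted p = 0.696). Cirl, a latrophilin-type adhesion receptor, had class j FPKM of 56.6, 66.7 and 60.0 in dNKAP RNAi and 96.3, 92.6 and 93.1 in control discs, with a share of 24.2% ± 2.00 in dNKAP RNAi and 35.5% ± 1.28 in control discs (SD, n = 3 each). jbug, a filamin-type actin cross-linker, had a share of 28.3% ± 3.74 in dNKAP RNAi and 45.1% ± 3.60 in control discs. Sfxn2, a mitochondrial sideroflexin, had a share of 78.6% ± 1.69 in dNKAP RNAi and 47.5% ± 3.88 in control discs. None of these 4 hosts passed the class j or the share test (adjusted p = 0.387 for FoxK and 0.660 for Cirl, jbug and Sfxn2 in class j FPKM).

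**Figure D4:**
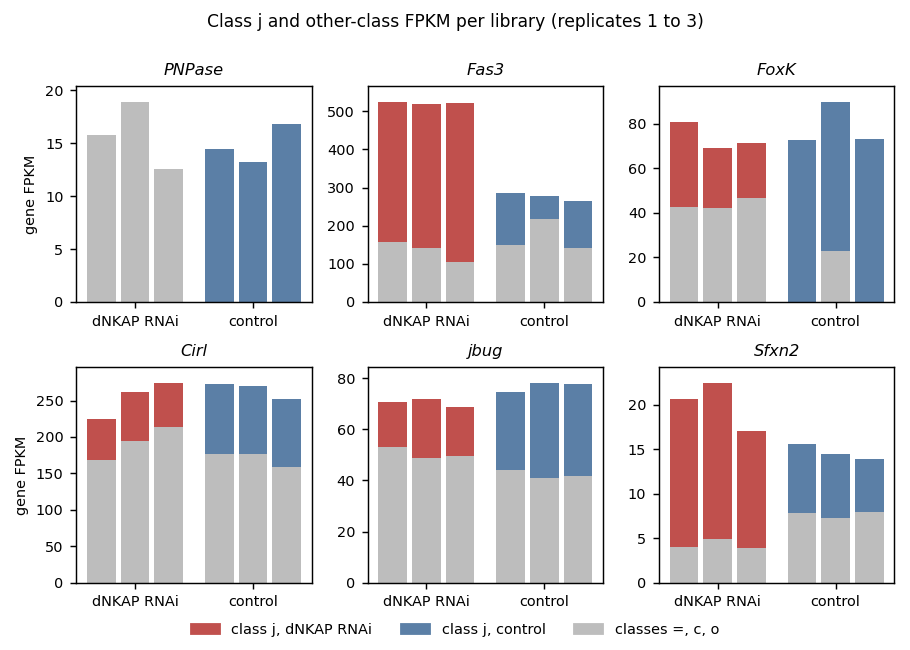
Gene FPKM (y axis) per library for PNPase and 5 hosts with class j in all 6 libraries, dNKAP RNAi replicates left of control replicates; grey is classes =, c and o, red or blue is class j. PNPase is all grey in dNKAP RNAi and all blue in control discs, Fas3 has more class j FPKM in dNKAP RNAi and overlapping grey parts, and FoxK, Cirl and jbug have smaller class j parts in dNKAP RNAi.

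**Figure D5:**
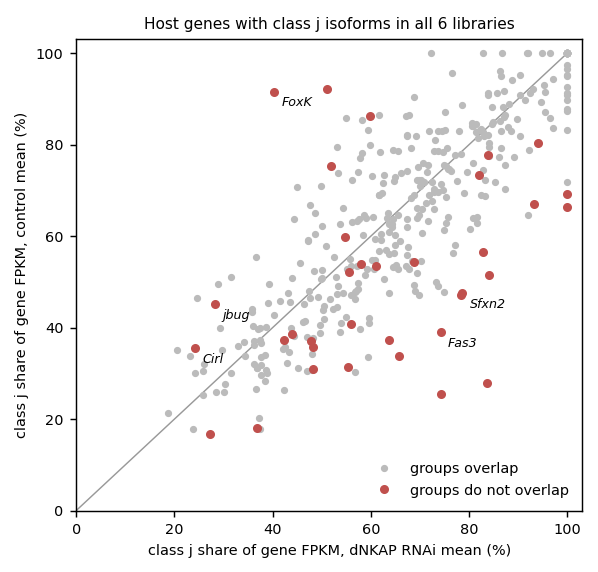
Mean class j share of the gene FPKM in dNKAP RNAi (x axis) against control discs (y axis), in percent, for the 420 hosts with class j in all 6 libraries; red points are the 28 hosts higher and 7 lower in every dNKAP RNAi library than in every control. Most points scatter around the line of equal shares, and Fas3 and Sfxn2 lie below it with higher shares in dNKAP RNAi.

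Isoforms whose closest reference has a single intron locate the shared junction. There were 341 such rows, 3.26% of those with an annotated reference, matched to 177 reference transcripts of 171 genes. The intron lay within the coding sequence for 116 references, in the 5′ UTR for 49 and in the 3′ UTR for 3, and 9 references are non-coding. The isoforms of 3 references, those of emc, Sk1 and Pex3, were present in all 6 libraries. emc encodes the helix-loop-helix inhibitor Extra macrochaetae and shares the intron chr3L:750228-752271 within its coding sequence. Its class j FPKM was 204, 159 and 180 in dNKAP RNAi and 191, 164 and 204 in control discs, overlapping groups. Pex3, a peroxisome biogenesis factor, shares the 119-base intron chr3L:15144550-15144668 in the 5′ UTR. It had class j FPKM of 12.1, 11.3 and 11.9 in dNKAP RNAi and 6.44, 8.05 and 8.46 in control discs, groups that do not overlap (adjusted p = 0.660).

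The 8 hosts with the highest mean class j FPKM each lacked it in some libraries. Cyp1, a cyclophilin, had class j FPKM of 1646, 1024 and 1628 in dNKAP RNAi and 0, 2175 and 0 in control discs. Df31, a chromatin decondensation factor, had 0, 2902 and 2769 in dNKAP RNAi and 0 in control discs. Rm62, a DEAD-box RNA helicase, had 1554, 0 and 0 in dNKAP RNAi and 1008, 1477 and 1006 in control discs. Among ribosomal proteins, RpL23 had 3665 FPKM of class j in dNKAP RNAi replicate 2 and RpL29 had 3392 FPKM in control replicate 1, with 0 in every other library. RpS14a and RpL17 each had class j in dNKAP RNAi replicate 3 and control replicate 1 alone. pAbp, the poly(A)-binding protein, had 138, 744 and 0 in dNKAP RNAi and 888, 0 and 707 in control discs. Replicates of one group differed by the presence or absence of class j in all 8, and none was called (adjusted p = 0.660 for Cyp1, Df31, Rm62, RpL23 and RpL29).

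The hosts with the most distinct isoforms had class j in every library. osa, a subunit of the Brahma chromatin remodelling complex, had 18 isoforms by reference and length, ctrip, a ubiquitin ligase, and plx had 17 each, Mbs, the myosin phosphatase subunit, had 16 and CG10737 had 15. Class j FPKM of osa was 80.3, 97.9 and 62.0 in dNKAP RNAi and 97.6, 72.6 and 69.2 in control discs, a share of 86.9% ± 14.6 in dNKAP RNAi and 88.3% ± 10.1 in control discs (SD, n = 3 each). Groups overlapped for ctrip, Mbs and CG10737 too. Only plx did not overlap, with 12.8, 9.15 and 9.43 FPKM in dNKAP RNAi and 9.09, 7.51 and 7.43 FPKM in control discs (adjusted p = 0.785).

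Across 12 lists of genes that fit the tissue and the target, 3 of the class j calls fell in a list, beside a background of 13 called among 2318 tested hosts (0.561%). At that share fewer than 1 call would fall in any of these lists, so single calls and their absence are not read as a property of a list. Of 17 tested hosts among SR proteins and hnRNPs, 1 was called higher (sqd), with a median log2 difference of 0.18, and of 7 tested spliceosome hosts none was called (median -0.09). SmD2, a core spliceosomal protein, had 0, 240 and 251 class j FPKM in dNKAP RNAi and 270, 250 and 275 in control discs. Of 31 tested hosts among wing patterning transcription factors 1 was called lower (ttk, median 0.00), and of 5 in translation 1 was called lower (eIF4E1, median -0.87). None was called among 31 tested hosts of the Notch, Wnt, Hh, Dpp and EGFR pathways (median 0.32), 18 of Hippo, growth and cell cycle (0.04), 10 of JNK and apoptosis (0.19), 27 of actin, polarity and junctions (0.08), 16 of chromatin (-0.06), 5 of DNA repair (-0.33), 9 of stress and ecdysone (-1.34) and 5 of the exon junction complex and decay (-0.20). The median over all 2318 tested hosts was 0.10, and fitted differences of hosts with libraries at 0 depend on the added 0.5 FPKM.

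In lists without a call, the host with the highest class j FPKM varied in presence in most cases. tkv, the Dpp receptor Thickveins, had class j FPKM of 214, 201 and 256 in dNKAP RNAi and 0, 0 and 243 in control discs (adjusted p = 0.660). Diap1, the inhibitor of apoptosis, had 237, 237 and 277 in dNKAP RNAi and 213, 0 and 235 in control discs. grp, the checkpoint kinase Chk1, had 0 in dNKAP RNAi and 161, 83.2 and 0 in control discs. Ref1, an mRNA export adaptor, had class j in control replicate 2 alone. Xrp1, a stress-induced bZIP factor, had 0, 325 and 664 in dNKAP RNAi and 215, 213 and 157 in control discs. Moe, the cytoskeletal linker Moesin, and msn, a kinase upstream of JNK, had class j in all 6 libraries with overlapping groups.

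Reads of several hosts named above could be shared with another gene. Exons of ATPsynbeta, br, E2f1, Cyp1, RpL23, RpL29, ctrip, SmD2, Ref1, tkv, Diap1, grp, fu, neur, Lar and Orc2 overlap those of a neighbouring or antisense gene. RpS14a has a near-identical copy, RpS14b, between which an assembler can divide reads, so its values are uncertain.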

How the data were processed

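Each of the 6 tables lists the transcripts assembled from 1 library in the layout of Cuffcompare, per the file headers. The authors deposited FPKM values with confidence bounds, which were used unchanged. A second column holds coverage, the authors' average depth of reads along a transcript. Another gives, as deposited, each transcript's percent of the most abundant isoform of its locus. The submitters' processing notes name dm6, FastQC, HTSeq and DESeq. Versions, assembler, annotation release and strand use are not stated in the labels or headers. Names, introns and coordinates are from Ensembl release 115 of the same assembly, which matched 3123 of 3129 hosts after 149 outdated gene identifiers were updated by transcript. Classes outside =, c, j and o (0.267% to 3.70% of a library's FPKM) did not enter gene sums.

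Class j FPKM was summed per host. limma 3.58.1 (R 4.3.3) was run on log2(FPKM + 0.5) with a trend in the prior variance, for means from 1 FPKM upwards, two-sided, with Benjamini-Hochberg adjusted p under 0.05; the share was tested as the log2 ratio of class j to other classes. Single values per library were compared by exact permutation. The fit was checked on simulated data with normal noise. No simulated host was set to lack class j in a whole group, so that check does not cover the calls made here. Other work used Python 3.11.15 with pandas 2.3.3, numpy 2.4.6 and, for plots, matplotlib 3.10.9. Alternatives were the added value, filters, scaling, bounds, read depth, class codes, a replicate block and leaving out each library. Members, gene lists and naming rule were chosen with earlier results of these data known. The rule names CG6066, the 8 hosts highest in class j FPKM, the 5 with most isoforms, up to 10 rises and 10 falls past each test without overlap (filled to 5 by smallest p), and up to 3 called hosts per list, or its highest host if none was called.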

Additional observations from a re-analysis of the deposited data

Results flagged for a closer look

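Of the transcripts outside the 4 classes used for gene sums, those of classes i, u and e had a higher summed FPKM in every dNKAP RNAi library than in any control, given as values with no test, while the groups overlapped for classes p and x. Class i transcripts, which lie within a reference intron, averaged 143 rows in dNKAP RNAi (137 to 151 per library) against 103 to 133 in control libraries. Their summed FPKM averaged 7437 in dNKAP RNAi (1127 to 19761) against 619 to 791 in control libraries, and dNKAP RNAi replicate 2 carries that mean, since the other replicates had 1127 and 1422. Class u transcripts, which are intergenic, averaged 547 FPKM in dNKAP RNAi (501 to 636) against 332 to 399 in control libraries. Class e transcripts, single-exon transcripts that cover an exon and part of an intron, averaged 973 FPKM in dNKAP RNAi (615 to 1628) against 351 to 453 in control libraries. All 3 dNKAP RNAi libraries lay above all controls in these 4 values, although they were the shallower libraries.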

How the results depend on the processing

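The 7 higher and 6 lower class j calls were the same genes with 1 FPKM added, with median-ratio scaling and with rows whose lower bound exceeds 0. With 0.1 FPKM added they numbered 5 and 5, and 6 and 5 both without a filter and with a mean of at least 5 FPKM. With the replicate block 0 and 0 hosts were called (0 in the share test too). Deviations from the group means in same-numbered libraries had r of 0.0042, 0.0239 and 0.0042 in class j FPKM. In gene FPKM r was -0.0375, 0.0572 and -0.005. Class j varies in presence between replicates, so its low r cannot exclude a pairing, and the labels do not state one. Restricted to hosts that had class j in all 6 libraries, an alternative added after seeing the data, 0 and 0 were called. Leaving out 1 library gave 5 to 14 higher and 4 to 15 lower calls. The share test called 0 higher and 0 lower hosts, and 1 lower host, PNPase, with 0.1 FPKM added, with means of at least 5 FPKM or with read depth in place of FPKM; the cause was not tested. The difference in class j rows per library, 34 in dNKAP RNAi minus control, was -4.83 to 76.3 on leaving out 1 library. Signs of uncalled log2 differences also turned on leaving out 1 library: -3.87 to 4.06 for RpS14a, -3.82 to 3.997 for RpL17, -4.41 to 2.24 for pAbp, -0.16 to 0.17 for osa, -0.13 to 0.50 for ctrip, -0.17 to 0.31 for Mbs, -0.0343 to 0.33 for CG10737, -0.24 to 0.0042 for msn, -3.92 to 1.27 for Xrp1 and -0.0726 to 0.59 for Moe. Among single named genes under the other settings, 323 comparisons kept their side of the threshold, 20 lost it and 3 gained it, with no reversal. Depth per library is known as bases only, so no counting intervals are given, and a class j isoform at low depth may go unassembled.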
